A study of Mus musculus with 39 samples.

Results

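The 8 genes described here, Gcm2, Gata3, Tbx1, Eya1, Pax9, Pax1, Men1 and Hoxa3, encode nuclear proteins of the parathyroid lineage. They were chosen by name from the 27179 genes counted in mouse parathyroid glands, with earlier results of these data known. All 8 passed the filter on low counts. RNA was sequenced from 39 samples, each a pool of glands from 2 male mice aged 11 weeks, collected every 4 h from lights on (zeitgeber time, ZT, 0). The 18 knockout samples (KO) came from PTHcre;Bmal1 flox/flox mice, which combine the floxed allele of strain B6.129S4(Cg)-Arntltm1Weit/J and the transgene of strain 129;FVB-Tg(PTH-cre)4167Slib/J. Their Cre recombinase is driven by the human PTH promoter and removes exon 8 of Bmal1 (gene symbol Arntl), a core activator of the circadian clock. The 21 control samples (WT) came from Bmal1 flox/flox littermates without Cre, so both groups carried the loxP sites on both copies. WT samples numbered 3, 4, 2, 3, 5 and 4 at ZT0, ZT4, ZT8, ZT12, ZT16 and ZT20, and KO samples numbered 3, 3, 3, 2, 3 and 4. No control with Cre alone was analysed here.

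The parathyroid glands and the thymus arise together from the third pharyngeal pouch of the embryo. Hoxa3, a homeobox factor, is needed in mice for that pouch to form both organs, and the paired-box factors Pax1 and Pax9 and the transcriptional cofactor Eya1 act in the pouch. Tbx1 is a T-box factor of the pharyngeal region. Gcm2 marks the part of the pouch that becomes parathyroid and is required for the gland, and the zinc-finger factor Gata3 acts with it. Men1 encodes menin, a scaffold of histone methyltransferase complexes and a tumour suppressor whose loss causes parathyroid tumours.

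The upstream sequence of Gcm2 is shown because the level of that gene was the highest of the group. That of Pax1 is shown because its log2 level varied most within groups of one genotype and time. Both are the 250 bases before the RefSeq start on GRCm38.p6, at chr13:41109989-41110238 (minus strand) and chr2:147364744-147364993 (plus strand). Capitals mark a form of the GATA motif, the letters GATAA or GATAG with an A or a T before them, on either strand.
Gcm2: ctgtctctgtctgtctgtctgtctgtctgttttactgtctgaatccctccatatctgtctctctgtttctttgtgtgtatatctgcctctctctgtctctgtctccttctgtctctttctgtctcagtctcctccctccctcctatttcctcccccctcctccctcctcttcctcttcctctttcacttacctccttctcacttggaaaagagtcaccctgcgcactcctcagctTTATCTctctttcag
Pax1: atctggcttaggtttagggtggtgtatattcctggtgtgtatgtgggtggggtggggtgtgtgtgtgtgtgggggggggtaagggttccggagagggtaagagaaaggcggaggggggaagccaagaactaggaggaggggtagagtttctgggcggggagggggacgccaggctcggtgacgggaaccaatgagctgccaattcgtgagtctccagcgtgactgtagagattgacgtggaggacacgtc
The window of Gcm2 holds 1 such match, and Pax9 holds 1 as well. The RefSeq table had 10 start sites for 7 of the 8 genes, and a GATA match occurred before 2 of them, against 26.5% of all 32851 windows of that length. The E-box letters CACGTG, which the BMAL1 and CLOCK pair binds, were in 0 of the 10 windows and in 6.02% of all windows. The letters AGGTCA, the core of the ROR element, were in 0 of the 10 and in 14.0% of all. GENCODE M21 places the outermost start of Gcm2 (position 41111035) and of Pax1 (position 147361925) farther upstream, so both printed windows lie inside the genes as GENCODE draws them.

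Libraries held 38111766 to 68938704 counts. Parathyroid identity was high in every library, with parathyroid hormone (Pth) at 61680 to 227069 CPM (library-scaled counts with TMM factors) and the calcium-sensing receptor gene Casr at 2045 to 3663 CPM. Other tissue was present in uneven amounts. Thyroglobulin (Tg) ranged from 0.546 to 61265 CPM. The summed level of 16 lymphoid markers ranged from 11.8 to 1780 CPM in WT and from 13.2 to 700 CPM in KO, and that of 9 thymic epithelial markers from 39.8 to 339 and from 29.6 to 413 CPM. Foxn1, which defines thymic epithelium, was at 0 in 4 libraries and reached 3.63 CPM, and Myod1, which defines the muscle lineage, was at 0 in 36. Transcripts of other muscle markers were present. A list of 13 skeletal muscle markers summed to between 101 and 604 CPM across WT libraries. Across KO libraries that sum lay between 153 and 328 CPM. In bulk glands, fewer cells of a type and less RNA per cell cannot be told apart. The labels conflict on the time of 3 samples, WT ZT16 replicates 4 and 5 and KO ZT16 replicate 1, whose titles say ZT16 and whose characteristics say ZT20. They were kept at ZT16, and results that change without them are given. Arntl itself had means of 22.6 CPM in WT and 16.8 CPM in KO (log2 fold change -0.25, adjusted p = 0.465 by edgeR's quasi-likelihood test). Exons that the deletion spares are counted too, so this gene is a poor check of genotype.

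The 8 genes covered a wide range of levels in the adult gland. Per kilobase of exon, over all 39 libraries, Gcm2 stood at 119 ± 16.1 CPM (SD), Gata3 at 54.7 ± 11.2, Pax9 at 29.4 ± 3.53 and Eya1 at 11.1 ± 1.36. Men1 stood at 10.1 ± 0.745 CPM per kilobase, Tbx1 at 8.33 ± 1.2, Pax1 at 3.38 ± 1.58 and Hoxa3 at 0.245 ± 0.0926. Gcm2 was above Gata3 in every library, and the lowest Gcm2 value (83.2) exceeded the highest Gata3 value (81.2). The ranges of Pax9 and Eya1, and of Pax1 and Hoxa3, did not overlap either. Neighbours whose ranges overlapped were Eya1 with Men1, Men1 with Tbx1, Tbx1 with Pax1 and, at the edges, Gata3 with Pax9. Hoxa3 rested on 10 to 160 counts a library, so counting error is part of its spread, while Gcm2 rested on 14060 to 31974.

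**Figure D1:**
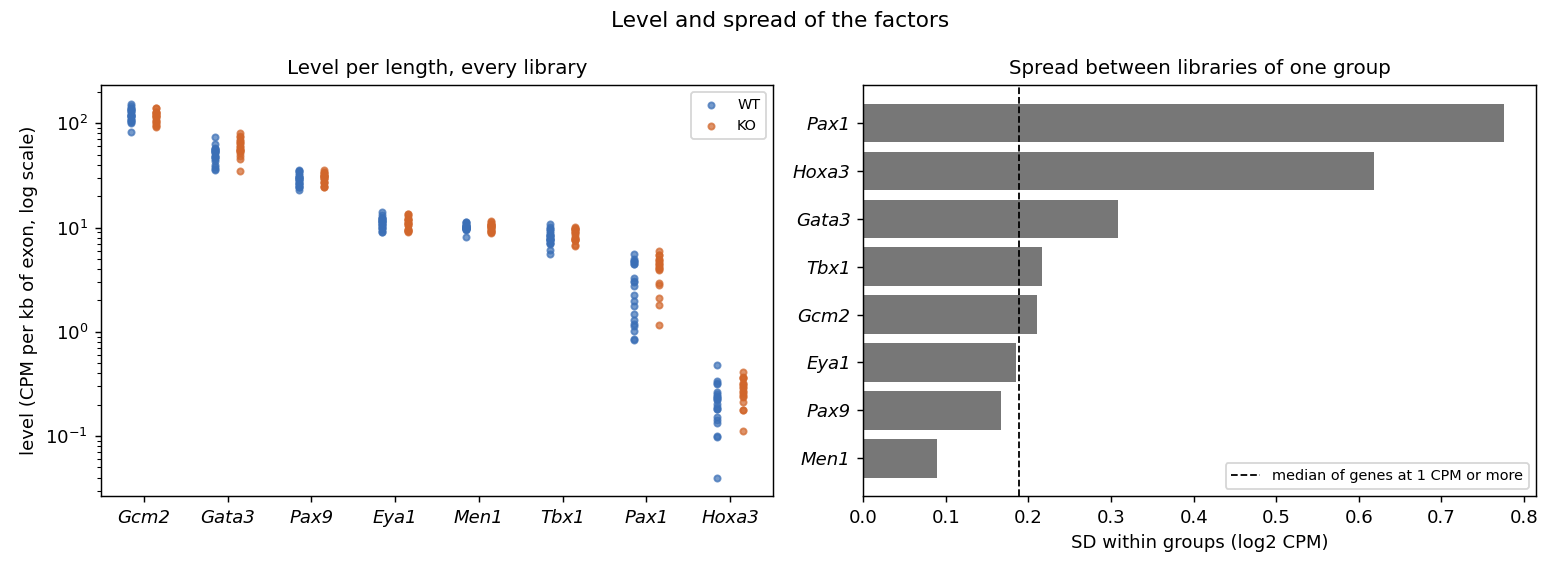
Left, the level of each gene in every library in CPM per kilobase of exon on a log axis, with WT in blue and KO in orange. Right, bars give the SD of log2 CPM within groups of one genotype and time, and the dashed line is the median of 13720 genes (0.189). Gcm2 is highest and Hoxa3 lowest, and Pax1 has the widest spread and Men1 the narrowest.

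The spread between libraries of one group differed from gene to gene. Within groups of one genotype and time, Men1 had an SD of 0.089 on the log2 scale, and only 1.43% of the 13720 genes with a mean of at least 1 CPM had a smaller one. Pax9 (0.167), Eya1 (0.185), Gcm2 (0.211) and Tbx1 (0.216) lay near the median of those genes (0.189). Gata3 varied more (0.309), and Hoxa3 (0.618) and Pax1 (0.775) had larger SDs than 88.9% and 93.2% of genes. Men1 spanned 30.9 to 44.7 CPM over all libraries, a ratio of 1.45, whereas Pax1 spanned 3.76 to 26.9 CPM, a ratio of 7.14. Hoxa3, the gene of lowest counts, had the largest ratio, 12.0 (0.241 to 2.88 CPM).

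No member passed the test between genotypes. Of all genes, 7.69% passed (1435 of 18661, 668 higher and 767 lower in KO, quasi-likelihood test of edgeR, Benjamini-Hochberg adjusted, time as a factor), and of the 8 members 0 passed, with 3 at an unadjusted p under 0.05 against 21.1% of all genes. DESeq2 also called 0 of 8. The members' median log2 fold change was 0.08, and that of all genes tested was 0.001. The 8 members shared all samples, so their values are not independent of each other.

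Gcm2 (Entrez ID 107889, mm10 chromosome 13, 41101427 to 41111035, minus strand) was the most abundant. In WT the libraries read 398, 385 and 348 CPM for ZT0, 430, 443, 389 and 372 for ZT4, 358 and 343 for ZT8, then 448, 466 and 400 for ZT12. They read 509, 430, 331, 275 and 480 CPM at ZT16, and 414, 389, 456 and 352 at ZT20. The WT ZT16 libraries held both the highest and the lowest value of the series. In KO the libraries read 426, 399 and 307 CPM for ZT0, 382, 313 and 352 for ZT4, 341, 383 and 384 for ZT8, then 427 and 331 for ZT12. They read 414, 460 and 394 CPM at ZT16, and 349, 315, 413 and 467 at ZT20. The genotypes overlapped at every time. WT averaged 401 ± 56.4 CPM (SD, n = 21) and KO 381 ± 48.9 CPM (SD, n = 18). The log2 fold change was -0.06 ± 0.06 (SE, adjusted p = 0.650 by edgeR), with a 95% interval from -0.19 to 0.07, or 0.878 to 1.05-fold.

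Gata3 (Entrez ID 14462, chromosome 2, 9857078 to 9890034, minus strand) had the smallest p of the 8 between genotypes, and it did not pass. WT libraries read 195, 229 and 214 CPM for ZT0, 225, 253, 190 and 209 for ZT4, 156 and 212 for ZT8, then 227, 179 and 151 for ZT12. At ZT16 they read 145, 296, 171, 143 and 219 CPM, and at ZT20 222, 188, 212 and 190. KO libraries read 239, 225 and 219 CPM for ZT0, 181, 274 and 217 for ZT4, 268, 259 and 192 for ZT8, then 292 and 215 for ZT12. At ZT16 they read 137, 237 and 301 CPM, and at ZT20 323, 222, 205 and 257. The KO mean was above the WT mean at each of the 6 times, and the groups overlapped at each of them. Over all times the means were 201 ± 37.3 CPM in WT and 237 ± 45.6 CPM in KO, and KO minus WT was 0.23 ± 0.09 on the log2 scale (SE; adjusted p = 0.124 by edgeR; 95% interval 0.05 to 0.42).

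The side of the threshold on which Gata3 fell depended on ZT16 libraries. Without the 3 samples of unclear time its log2 fold change was 0.27 and passed (adjusted p = 0.0389 by edgeR). It also passed without WT ZT16 replicate 2, the highest WT value (0.27, adjusted p = 0.0414), and without KO ZT16 replicate 1, the lowest value of all (0.28, adjusted p = 0.0321). Without the 12 libraries of high lymphoid score (at least 1), 6 of each genotype, the log2 fold change was 0.14 (adjusted p = 0.670). Over all 12 alternatives and 39 single-sample omissions the adjusted p ranged from 0.0321 to 0.670. In GENCODE M21, Gata3 shares 77 exon bases with 9230102O04Rik on its own strand and 155 with Gm13256 on the other, so a part of its counts cannot be assigned with certainty.

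The other pouch factors of middle abundance did not pass between genotypes either. Pax9 (Entrez ID 18511, chromosome 12, 56691767 to 56712822, plus strand) averaged 146 ± 18.6 CPM in WT and 151 ± 17.1 in KO, with ranges of 117 to 181 and 123 to 180 CPM. Its log2 fold change was 0.07 ± 0.05 (SE, adjusted p = 0.465 by edgeR; 95% interval -0.03 to 0.17). Pax9 shares 189 exon bases with Slc25a21 on the opposite strand. Eya1 (Entrez ID 14048, chromosome 1, 14168954 to 14310235, minus strand) averaged 87.0 ± 10.3 CPM in WT and 86.0 ± 11.3 in KO, with ranges of 71.0 to 110 and 71.0 to 106 CPM. Its log2 fold change of -0.02 ± 0.06 (SE, adjusted p = 0.898 by edgeR) had a 95% interval from -0.13 to 0.10. Tbx1 (Entrez ID 21380, chromosome 16, 18580979 to 18590671, minus strand) ranged from 19.4 to 37.8 CPM in WT and from 23.5 to 35.6 CPM in KO. Its log2 fold change was 0.09 ± 0.06 (SE, adjusted p = 0.440 by edgeR; 95% interval -0.04 to 0.22). Over the 12 alternatives the Tbx1 value ran from 0.05 to 0.18, and its adjusted p from 0.0574 to 0.859 by edgeR or DESeq2.

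Men1 (Entrez ID 17283, chromosome 19, 6334979 to 6340891, plus strand) was the steadiest of the 8. WT libraries ran from 30.9 through a median of 38.9 to 43.6 CPM, and KO libraries from 33.7 through 38.9 to 44.7 CPM. The log2 fold change over all times was 0.01 ± 0.03 (SE, adjusted p = 0.919 by edgeR). Its 95% interval ran from -0.06 to 0.07, or 0.962 to 1.05-fold. That interval does not bound the difference at a single time, which at ZT8 was -0.16 ± 0.09 (SE) and did not pass.

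Pax1 (Entrez ID 18503, chromosome 2, 147361925 to 147393295, plus strand) showed the largest difference in size and the largest error. WT libraries read 20.0, 21.3 and 21.5 CPM for ZT0, 12.4, 5.35, 14.7 and 21.1 for ZT4, 20.0 and 13.6 for ZT8, then 10.1, 4.62 and 7.88 for ZT12. At ZT16 they read 3.86, 5.77, 13.9, 6.65 and 8.79 CPM, and at ZT20 22.2, 5.09, 3.76 and 25.1. The ZT0 libraries lay close together and high, and the ZT20 libraries split into a high and a low pair. KO libraries read 19.5, 9.49 and 21.9 CPM for ZT0, 13.1, 21.4 and 18.4 for ZT4, 18.0, 19.0 and 5.20 for ZT8, then 20.3 and 22.3 for ZT12. At ZT16 they read 17.8, 20.7 and 24.7 CPM, and at ZT20 24.4, 26.9, 8.04 and 12.7. Every KO library exceeded every WT library at ZT12 and at ZT16, and the genotypes overlapped at the other 4 times. Groups this small can lie apart by chance, and the share of all genes without overlap was not counted. Over all times the means were 12.8 ± 7.23 CPM in WT and 18.0 ± 6.01 CPM in KO, and KO minus WT was 0.55 ± 0.25 on the log2 scale (SE; adjusted p = 0.189 by edgeR). The 95% interval ran from 0.05 to 1.05, or 1.03 to 2.07-fold.

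Within times, KO minus WT for Pax1 was 1.49 ± 0.65 on the log2 scale (SE; adjusted p = 0.542 by edgeR) at ZT12 and 1.43 ± 0.52 (SE; adjusted p = 0.461) at ZT16. At those times 0.161% and 0.182% of all genes passed. Marker scores of the same libraries are given for both times. At ZT12 the lymphoid scores (mean log2 CPM of the 16 markers) were -1.52, -2.84 and -1.66 in WT and 1.71 and 2.52 in KO, and the thymic epithelial scores were 0.94, 0.48 and -0.79 in WT and 1.36 and 3.29 in KO. At ZT16 the lymphoid scores were -2.67, -2.20, 4.75, 5.33 and 0.21 in WT and 1.97, -1.70 and 0.78 in KO, and the thymic epithelial scores were -0.14, -0.24, 3.71, 3.60 and 3.11 in WT and 2.85, 1.23 and 1.04 in KO, so there the genotypes overlapped in both. Without the libraries of lymphoid score at or above 1, the Pax1 difference at ZT16 was 1.88 (adjusted p = 0.645 by edgeR). Over all times, 0 of the 9 thymic epithelial markers passed between genotypes, with 8 of 9 positive and a median log2 fold change of 0.65, and 0 of the 16 lymphoid markers passed. For lymphoid markers the 2 summaries differed in direction, since 15 of 16 fitted log2 fold changes were positive (median 1.00) and 13 of 16 had a lower mean CPM in KO, such as Rag1 with 62.7 CPM in WT and 37.1 in KO. The 4 tissue scores used as covariates were thyroid, lymphoid, muscle and fat, and the thymic epithelial score was not among them. With these covariates, the Pax1 difference was 0.47 over all times (adjusted p = 0.303 by edgeR), 1.83 at ZT12 (adjusted p = 0.732) and 1.64 at ZT16 (adjusted p = 0.292) on the log2 scale. Its slope on the lymphoid score was 0.09 ± 0.07 log2 units per unit (adjusted p = 0.419 by edgeR). Pax1 shares 183 exon bases with the antisense gene AI646519.

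Hoxa3 (Entrez ID 15400, chromosome 6, 52169062 to 52213336, minus strand) had the lowest level of the 8. WT libraries ran from 0.241 through a median of 1.34 to 2.88 CPM and KO libraries from 0.670 through 1.69 to 2.49 CPM. The log2 fold change was 0.39 ± 0.19 (SE; adjusted p = 0.231 by edgeR; 95% interval 0.005 to 0.78). Its largest difference within a time was 1.17 ± 0.54 (SE, adjusted p = 0.565) at ZT12, where the WT libraries read 1.09, 0.241 and 0.798 CPM and the KO libraries 2.16 and 1.06. Overlap with 5 other annotations, among them Hoxaas3 with 297 and Hoxaas2 with 503 shared exon bases on the opposite strand, makes the Hoxa3 counts uncertain.

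**Figure D2:**
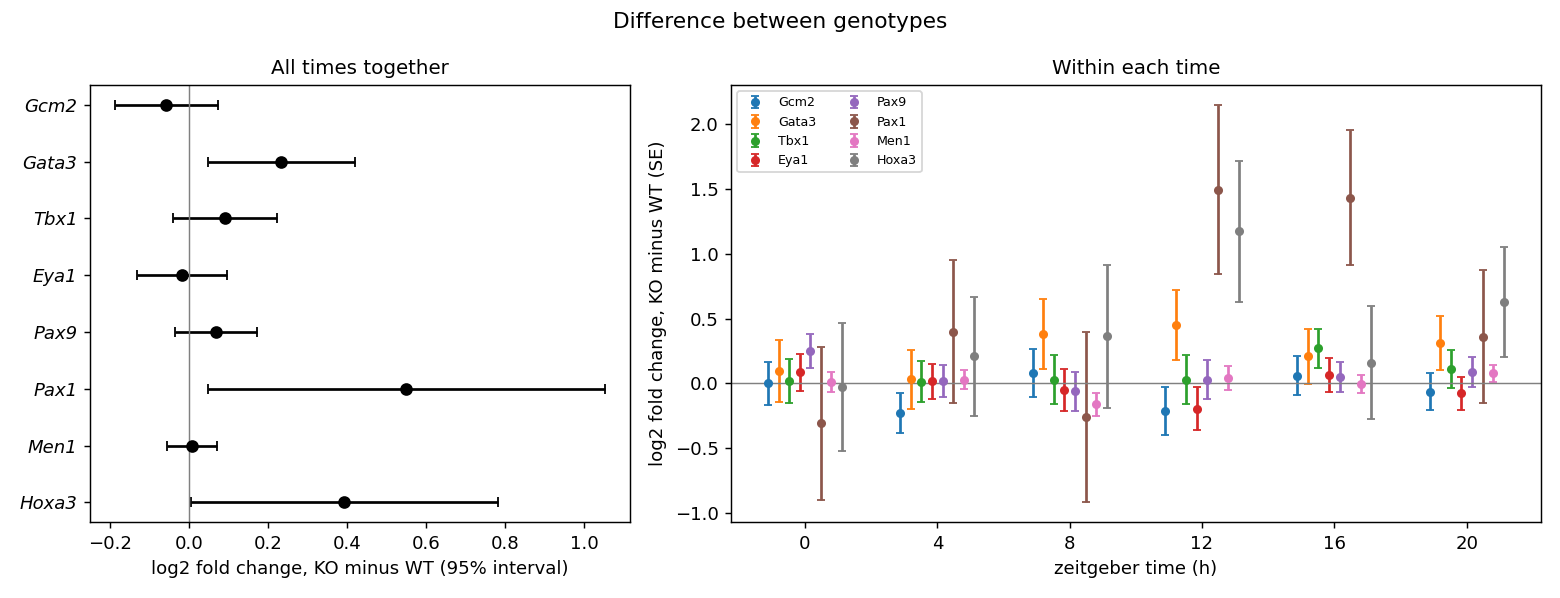
Left, log2 fold change KO minus WT of each gene over all times, with 95% intervals. Right, the same within each ZT, with SE bars. Gcm2, Eya1, Men1, Pax9 and Tbx1 have intervals that span 0, and the largest values are those of Pax1 at ZT12 and ZT16 (1.49 and 1.43) and of Hoxa3 at ZT12 (1.17).

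Over the 6 times, 0 of 48 contrasts of a member within a time passed edgeR's test, and 3 had an unadjusted p under 0.05, the Pax1 and Hoxa3 values given above. Of all genes, 0.0643% passed at ZT0, 0.075% at ZT4, 0.0589% at ZT8 and 0.89% at ZT20. The share of all genes at an unadjusted p under 0.05 was not counted for single times. Gcm2 ranged in its log2 fold change from -0.23 ± 0.16 (SE) at ZT4 to 0.08 ± 0.18 at ZT8. Gata3 ranged from 0.03 ± 0.23 (SE) at ZT4 to 0.45 ± 0.27 at ZT12. The libraries of the genotypes did not overlap in 6 of the 48, which were Pax1 at ZT12 and ZT16 and 4 others of smaller size. The share of all genes without overlap was not counted. Groups this small can lie apart by chance, so the 6 are a description only. Pax9 at ZT0 read 117 to 124 CPM in WT and 125 to 162 in KO, and Hoxa3 at ZT8 read 0.923 to 1.41 CPM in WT and 1.42 to 1.63 in KO. Men1 at ZT8 read 37.9 to 40.7 CPM in WT and 33.7 to 36.5 in KO, and Eya1 at ZT12 read 90.5 to 102 CPM in WT and 81.9 to 86.7 in KO.

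**Figure D3:**
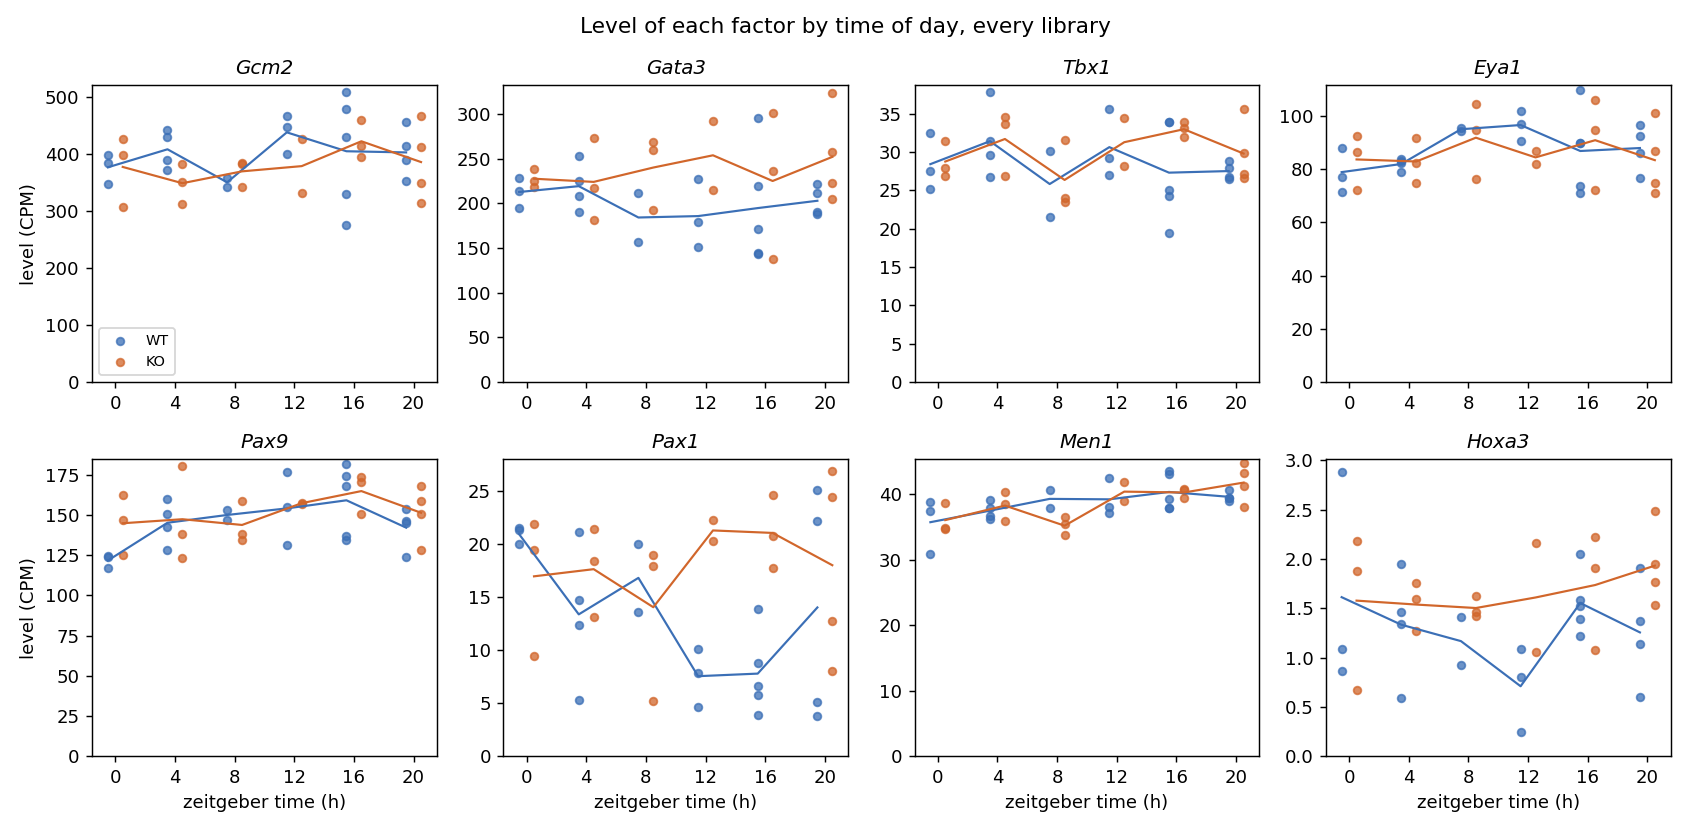
Level of each gene in CPM against zeitgeber time in hours, with 1 point per library and lines through the group means, WT in blue and KO in orange. Points of the genotypes lie apart in 6 of the 48 pairs of gene and time, those of Pax1 at ZT12 and ZT16, Pax9 at ZT0, Men1 and Hoxa3 at ZT8 and Eya1 at ZT12. The share over all genes was not counted.

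No member passed the test for a daily rhythm. A 24 h cosine was fitted in each genotype, and 0 of 8 members passed in WT (background 0.248%, 45 of 18131 genes) and 0 of 8 in KO (background 0.0779%, 14 of 17969). DESeq2 called 0 of 8 in both. Amplitudes, their SE, peaks and peak-to-trough ratios came from a separate least-squares fit to log2 CPM. The p-values below came from edgeR's fit to the counts. In WT that fit had amplitudes of 0.15 for Pax9 and 0.66 for Pax1. In WT, 2 members had an unadjusted p under 0.05, against 14.9% of all genes. Pax9 had an amplitude of 0.14 ± 0.05 (SE, log2, mean to peak) with its peak at ZT 12.3 (adjusted p = 0.287 by edgeR), with group means from 122 CPM at ZT0 to 159 CPM at ZT16. Pax1 had an amplitude of 0.63 ± 0.25 (SE) and its peak at ZT 2.16 (adjusted p = 0.328 by edgeR), with group means from 20.9 CPM at ZT0 to 7.55 CPM at ZT12.

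In KO, Men1 alone had an unadjusted p under 0.05, against 8.27% of all genes, with an amplitude of 0.10 ± 0.03 (SE) and a peak at ZT 17.3 (adjusted p = 0.540 by edgeR). Its KO group means ran from 35.2 CPM at ZT8 to 41.8 CPM at ZT20. Gcm2 had a peak-to-trough ratio of 1.05 in WT (amplitude 0.04 ± 0.07, SE) and 1.15 in KO (0.10 ± 0.06, SE). The difference in rhythm between genotypes passed for 0 of 8 members by edgeR, with 0 at an unadjusted p under 0.05 against 3.69% of all genes, and for 0 by DESeq2. The smallest p was that of Pax1 (adjusted p = 1 by edgeR), whose KO amplitude was 0.21 ± 0.22 (SE). Of all genes, 0.0161% passed that test (3 of 18661).

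With lymphoid content, 3 members fell. In a fit of genotype, time and 4 tissue scores together over all 39 libraries, edgeR called 15.8% of genes for a slope on the lymphoid score, and 4.89% with a downward slope. Gcm2 fell by 0.057 ± 0.012 log2 units per unit of score (SE, adjusted p = 5.14e-04), Tbx1 by 0.055 ± 0.015 (adjusted p = 0.00752) and Eya1 by 0.037 ± 0.012 (adjusted p = 0.0314). The score ran from -2.86 to 5.33. The 2 WT ZT16 libraries with the highest scores (4.75 and 5.33) were also the libraries with 331 and 275 CPM of Gcm2. The scores come from the same libraries and the levels are shares of a total, so a slope describes how they moved together.

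These slopes differed in stability. That of Gcm2 passed in all 39 fits with 1 library left out, that of Tbx1 in 38 (without WT ZT16 replicate 4 its adjusted p was 0.0525) and that of Eya1 in 12 (its highest adjusted p, 0.216, came without that same library). In WT libraries alone the slopes were -0.054 for Gcm2, -0.065 for Tbx1 and -0.032 for Eya1, and in KO libraries alone -0.045, -0.054 and -0.031, and 0 of 8 members passed in either. Gata3 (-0.036 ± 0.023), Pax9 (-0.015 ± 0.010), Men1 (0.006 ± 0.007) and Hoxa3 (-0.005 ± 0.050) had slopes on the lymphoid score that did not pass.

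**Figure D4:**
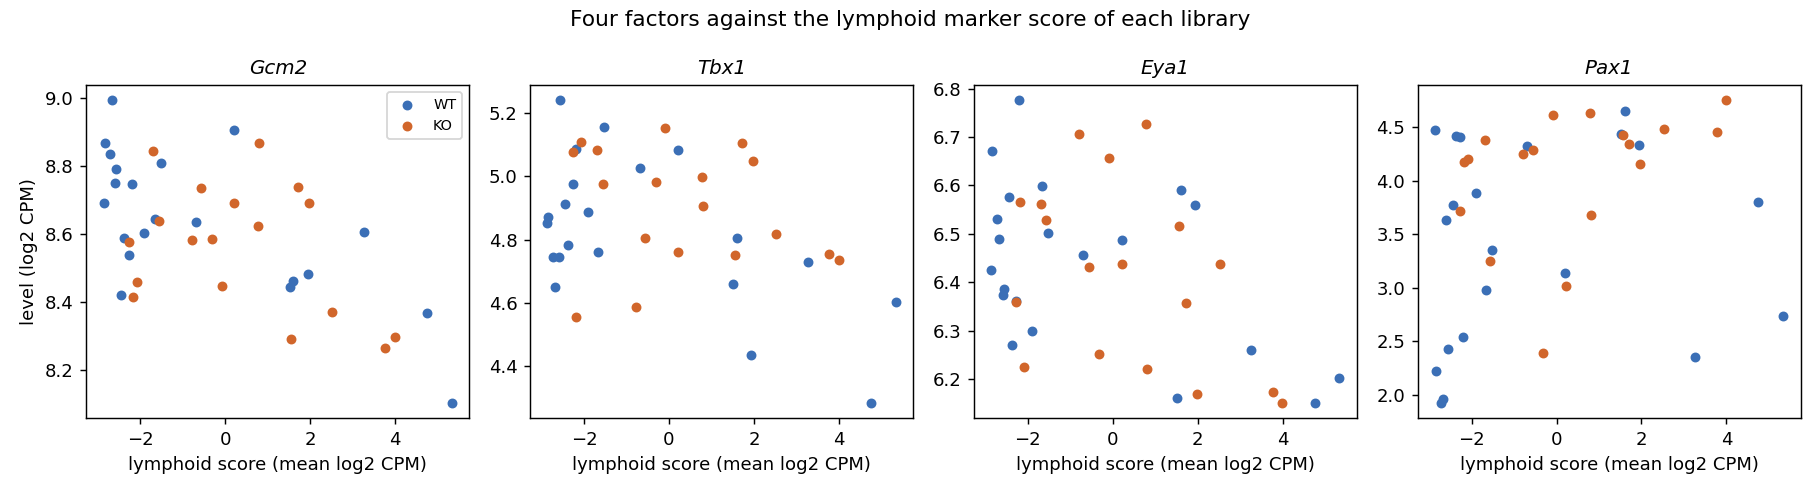
Level in log2 CPM against the lymphoid score (mean log2 CPM of 16 markers) of each library for Gcm2, Tbx1, Eya1 and Pax1, WT in blue and KO in orange. Gcm2, Tbx1 and Eya1 are lower in the libraries of highest score, and Pax1 is scattered over its range at low and high scores.

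On the thyroid score, Pax9 fell by 0.036 ± 0.010 log2 units per unit (SE, adjusted p = 0.0392 by edgeR), and 2.34% of all genes passed. It passed in 33 of 39 single-library omissions and in 1 of 6 other fits, and its adjusted p was 0.0523 to 0.0705 in the 6 omissions where it did not, those of WT ZT0 replicate 2, WT ZT4 replicates 1 and 3, WT ZT12 replicate 3 and KO ZT4 replicates 1 and 2. With the thyroid score as the only score, Pax9 did not pass (adjusted p = 0.0738 by edgeR) and Men1 did, with a slope of 0.019 ± 0.005 (SE, adjusted p = 0.0357). On the muscle score 0 of 8 members passed, with 0 at an unadjusted p under 0.05, and 0.0268% of all genes did. On the fat score 0 of 8 passed, with Pax9 at an unadjusted p of 0.0191, against 2.1% of all genes. No other tool was run for the slopes.

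Relations among the members were tested within each genotype. Of the 28 pairs, 1 passed in WT (n = 21) and 0 passed in KO (n = 18), by permutation of Pearson's r with adjustment over the 28 pairs of a genotype. In WT, Gata3 and Tbx1 had r = 0.67 (permutation p = 0.001, adjusted p = 0.028) and rho = 0.65 (permutation p = 0.00165, adjusted p = 0.0462), and r = 0.64 without the 2 libraries farthest from the median of Gata3. In KO the same pair had r = -0.10 (permutation adjusted p = 0.909) and rho = -0.03. The difference between the genotypes in r was not tested.

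Eya1 and Pax9 had r = 0.61 in WT (permutation p = 0.00364, adjusted p = 0.051) and r = 0.65 in KO (permutation p = 0.00406, adjusted p = 0.0662), just outside the threshold in both. Their rho was 0.54 and 0.61, and r without the 2 farthest libraries was 0.54 in each genotype. Gata3 and Eya1 had r = 0.62 in KO (permutation p = 0.00473, adjusted p = 0.0662), with rho = 0.59 and r = 0.50 without the 2 farthest libraries, and r = 0.17 in WT (permutation adjusted p = 0.754). Gcm2 and Pax1 had a negative r in both genotypes, -0.47 and -0.35 (permutation adjusted p = 0.142 and 0.502). All values of a pair come from the same libraries and share their depth and tissue content.

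**Figure D5:**
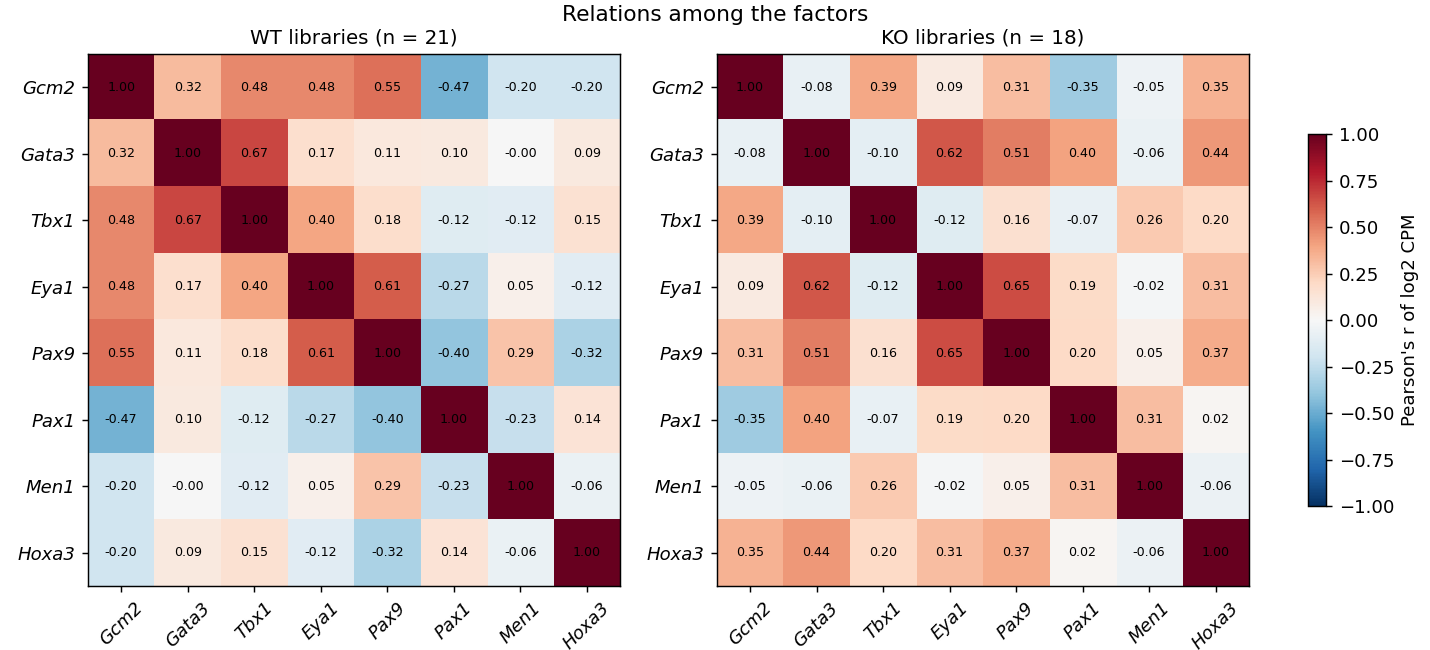
Pearson's r of log2 CPM between each pair of the 8 genes in WT (left, n = 21) and KO (right, n = 18), from -1 (blue) to 1 (red). Gata3 with Tbx1 in WT (0.67) and Eya1 with Pax9 in both (0.61 and 0.65) stand out with Gata3 and Eya1 in KO (0.62).

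The genes whose levels were most like each member's over the 39 libraries, among 12953 protein-coding genes of at least 1 CPM, were mostly of other families. For Gcm2 they were Vkorc1l1 (r = 0.79), Rabgap1l (0.75) and Frk (0.75), and for Gata3 Sema6a (0.79), Kif3c (0.78) and Zfp36l1 (0.78). Eya1 was most like Vps53 (0.80), Atf6 (0.79) and Ccpg1 (0.76), Pax9 like Aff4 (0.75), Spty2d1 (0.74) and Dpp8 (0.74), and Tbx1 like Zdhhc1 (0.73), Cacnb1 (0.72) and Speg (0.70). Men1 was most like Irf2bp1 (0.75), Syngr2 (0.74) and E130309D02Rik (0.73). Pax1 reached only 0.64 with Traf1, 0.62 with Grk3 and 0.62 with Plekha6, and Hoxa3 0.67 with Muc3a, 0.66 with Grin3b and 0.65 with Cnih2. These r are descriptions over samples that share depth and tissue content.

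Genes that work with the members were compared by the same genotype test. Of 28 tested genes of the pharyngeal pouch network, 3 were higher in KO and 0 lower, against 7.69% of all genes called in either direction. Spry2, an inhibitor of receptor tyrosine kinase signalling, rose from 19.1 to 24.3 CPM (log2 fold change 0.35 ± 0.06, SE, adjusted p = 1.87e-04 by edgeR). Hoxa2, a homeobox gene next to Hoxa3, rose from 4.07 to 5.57 CPM (0.45 ± 0.09, adjusted p = 0.00168). Fgfr2, a receptor for fibroblast growth factors, rose from 271 to 315 CPM (0.21 ± 0.06, adjusted p = 0.0178). The median log2 fold change of the 28 was 0.02, with 16 positive. At an unadjusted p under 0.05 there were 8, against 21.1% of all genes, and DESeq2 called 4. The share of all genes that DESeq2 called is not given here or below, and the 7.69% is edgeR's.

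Partners of single members did not pass apart from Hoxa2. Of 14 Pbx, Meis and Hox cofactors, 1 was higher, Hoxa2, with 12 of 14 positive, a median of 0.15, 7 at an unadjusted p under 0.05 (21.1% of all genes) and 4 called by DESeq2. Of 14 genes of the menin complexes 0 passed by edgeR and 0 by DESeq2, with 3 at an unadjusted p under 0.05, and the largest value was that of Kmt2d (0.28, adjusted p = 0.174). Of 8 tested GATA and GCM partners 0 passed by edgeR and 0 by DESeq2, with 1 at an unadjusted p under 0.05. Of 14 tested genes of the differentiated gland 0 passed by edgeR, with 1 at an unadjusted p under 0.05 and 1 called by DESeq2, and Pth stood at -0.20 and Casr at 0.12.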

How the data were processed

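Per the labels' protocols, glands were pooled from 2 male mice a sample, and total RNA went into libraries of a stranded, ribosomal RNA depleting kit. The authors deposited raw gene counts. The submitters' processing notes list build mm10 and the tools featureCounts 2.0.1, STAR 2.7.8a and DESeq2 1.30.1. Neither annotation nor strandedness in counting is stated, so reads of genes that share exons cannot be told apart. Small counts (1 to 10) were even in 89.6% of cases. A count may thus not stand for a single fragment, and counts such as those of Hoxa3 may overstate depth. Of 27179 gene IDs, 25275 (98.0% of counts) matched RefSeq symbols of GRCm38.p6. Exon lengths and gene coordinates came from GENCODE M21 (GRCm38).

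Counts were tested here with edgeR 4.0.16 in R 4.3.3 (robust quasi-likelihood, TMM, filterByExpr by group, Benjamini-Hochberg over all genes tested, threshold 0.05). TMM factors ranged from 0.839 to 1.10. Log2 CPM used a prior count of 2. A slope on a tissue score (mean log2 CPM of a marker list) came from 1 fit with all 4 scores. Pairs of members were tested by two-sided permutation with 100000 resamples (scipy 1.17.1). No 2 replicates were copies: with counts divided by 2, the 48 pairs within groups differed by a chi-square of 18.0 to 186 per gene. Nothing says which samples share a litter, and p-values measure the spread between pools. Named were the 8 members, the list genes of smallest p that passed (up to 4 a list), the parathyroid markers, Arntl and the 3 genes most like each member. Kmt2d was chosen after its values were seen. Results of some genes are not reported here. The members and lists were chosen with earlier results of these data known. Alternatives were DESeq2 1.42.0, its size factors, other filters, time terms, tissue scores as covariates, a block of replicate numbers, the other time label and single-sample omissions. Scripts were tested on simulated counts.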

Additional observations from a re-analysis of the deposited data

How the results depend on the processing

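Between genotypes the number of members called was 0, and 1 (Gata3) without the 3 samples of unclear time, with a range of 0 to 1 over single omissions. Rhythm calls among members were 0 in WT, in KO and for the difference under all alternatives and omissions, and calls within times were 0 as well. Members with a slope on the thyroid score were 1 at first and 0 with a filter at a mean of 1 CPM, with the replicate block, in WT only and in KO only (0 to 1 over single omissions). With each score alone the 1 member was Men1 and no longer Pax9. For the lymphoid score they were 3, then 2 after Eya1 was lost with DESeq2 size factors (adjusted p = 0.0561 by edgeR), with the filter (0.0755) and with the replicate block (0.0878), and 0 in WT only and in KO only (1 to 3 over single omissions). The fits of 1 genotype hold fewer samples. The sign of values that did not pass turned in some alternatives for Eya1 (4 of 51) and Men1 (3 of 51) between genotypes.

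Counts over all genes moved more. Genes differing by genotype numbered 454 without the lymphoid-rich libraries, an alternative chosen after seeing the data, which holds no KO sample at ZT12. Rhythmic genes in WT numbered 27 with the replicate block, 86 with 4 tissue scores, 25 without the lymphoid-rich libraries and 336 with DESeq2 (27 to 63 over single omissions). In KO they numbered 7 with the block, 4 with tissue scores, 9 without the samples of unclear time, 2 without the lymphoid-rich libraries, 8 with the other time label, 97 with DESeq2 and 8 with time as a factor (7 to 19 over single omissions). Over the alternatives other than single omissions, the counts within times ran from 10 to 19 at ZT0, 11 to 17 at ZT8, 11 to 34 at ZT12, 15 to 49 at ZT16 and 22 to 288 at ZT20. Over single omissions they ran from 4 to 13 at ZT0, 5 to 11 at ZT4, 5 to 19 at ZT8, 12 to 30 at ZT12, 4 to 52 at ZT16 and 36 to 286 at ZT20. Slope counts ran from 222 to 3833 (lymphoid), 86 to 876 (thyroid), 69 to 919 (fat) and 0 to 5 (muscle). The cause was not tested.

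Whether replicate numbers pair the samples was not settled. Of 17 same-numbered pairs, 8 correlated above 0.1, with r from -0.41 to 0.72. Differently numbered pairs were not compared, so these values cannot show pairing or its absence. The block moved the rhythmic genes as given, and no call of a member other than the slopes of Pax9 on the thyroid score (adjusted p = 0.166 by edgeR) and of Eya1 on the lymphoid score (adjusted p = 0.0878). Depth limits Hoxa3, whose lowest library held 10 counts.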
